A study of Arabidopsis thaliana with 12 samples.

Results

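Among Arabidopsis thaliana genes whose transcripts were lower after the inhibitor L-AOPP than after mock treatment, 6 were followed across all treatments: AT2G44370, AT5G47980, AT5G19110, MSRB9 (AT4G21850), AT4G20830 and AT1G72140. Each has 1 probe set that the platform annotation pairs with that gene alone, out of 13513 probe sets with 1 gene, and all 6 lay above the filter on dim signals. They were chosen by their signals on the L-AOPP and mock arrays, as the clearest falls with L-AOPP, so that fall is described here and not tested. By size of the mean fall they ranked 3, 14, 12, 42, 46 and 49, in the order named above, among the 8708 tested probe sets with 1 gene. By the p-value of the paired comparison, and among falls, they ranked 2, 4, 6, 1, 3 and 13.

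The 12 arrays carried RNA from whole Col-0 plants grown for 7 days with shaking in liquid Murashige and Skoog medium at 21 °C in constant light, with 3 arrays per group. L-AOPP+IPyA plants received 50 µM L-AOPP and, 1 h later, IPyA at a dose that the labels give both as 100 µM and as 0.1 µM. L-AOPP+IAA plants received 50 µM L-AOPP and, 1 h later, 1 µM IAA, L-AOPP plants received 50 µM L-AOPP alone, and mock plants were given only DMSO, the solvent. Treatment with L-AOPP lasted 3 h in all, which leaves 2 h with IPyA or IAA. Whether the 3 arrays of a group stand for separate cultures is not stated in the labels, so the p-values reflect the spread between arrays, possibly a technical one.

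Auxin controls growth and patterning throughout the plant, and its main natural form, IAA, arises largely from tryptophan through the intermediate IPyA. Aminotransferases make IPyA, and flavin monooxygenases of the YUC family convert it to IAA. L-AOPP (2-aminooxy-3-phenylpropionic acid) carries an aminooxy group of the kind that inactivates enzymes using pyridoxal phosphate, such as these aminotransferases, and it also inhibits phenylalanine ammonia-lyase. Adding IAA or IPyA after such an inhibitor asks which changes the hormone or its precursor brings back.

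The genes have different roles. AT5G47980 encodes a BAHD-type acyltransferase of the thalianol cluster, a group of neighbouring genes for root triterpenes. AT4G20830 encodes a flavin-dependent oxidase of the berberine bridge enzyme-like family. MSRB9 encodes a methionine sulfoxide reductase, a class of enzymes that repairs oxidised methionine in proteins. AT5G19110 encodes a protein of the aspartyl protease family, AT1G72140 a membrane transporter of the NPF family, and AT2G44370 a cysteine- and histidine-rich protein with C1 domains whose function is not well known.

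The arrays were similar in median signal and correlation, and differed more in a control of RNA integrity. Median signals ran from 169 to 185, and Spearman correlations of pairs of arrays from 0.969 to 0.988. The 3′/5′ ratio of the GAPDH control probe sets, which reflects RNA integrity, was 1.44, 1.51 and 1.12 in L-AOPP+IPyA replicates 1, 2 and 3, against 1.27, 1.41 and 1.17 in L-AOPP+IAA. It was 1.34, 1.27 and 1.15 (replicates 1, 2 and 3) in L-AOPP, against 1.40, 1.32 and 1.23 in mock, so it was lower with L-AOPP in each pair. Replicate 3 had the lowest ratio in every group. The part of this ratio in the results was not tested. Of 7 root marker genes, 6 have a probe set of their own and all 6 lay above the filter, while none of the 10 shoot markers chosen has one. The summed signal of the 6 root markers ranged from 2036 to 5992 in L-AOPP+IPyA, from 2127 to 6812 in L-AOPP+IAA, from 3234 to 6826 in L-AOPP and from 1745 to 8203 in mock, and these ranges overlap. Within replicate numbers, the sum with L-AOPP was above mock in 2 pairs and below it in 1. The sum with IPyA was below that with L-AOPP in 3 of 3 pairs, as was the sum with IAA. Gene by gene, the signs for the root markers were opposite to those of the genes described here. The fall of the 6 genes was fixed by their choice, and the same 3 L-AOPP arrays enter all these signs. The opposition is thus not an independent result. All 6 markers had a positive log2 difference between L-AOPP and mock, at 0.21 to 0.72. In that comparison 0 were called. With pairing 5 had an unadjusted p under 0.05, as did 2127 of all 15922 tested probe sets. All 6 had a negative log2 difference between L-AOPP+IPyA and L-AOPP, at -0.62 to -0.22. There 0 were called, and 4 had an unadjusted p under 0.05 with pairing, as did 1564 of all probe sets. All 6 were also below 0 between L-AOPP+IAA and L-AOPP, at -1.16 to -0.21. With pairing 2 were called there, against 3.71% of all probe sets, and without it 1, against 0.396%. In the last comparison UPB1, a transcription factor gene, was called lower with IAA, at -1.16 (adjusted p = 0.0439 without pairing, 0.000925 with it) and another marker, AT2G47540, was at -0.61 (called with pairing, adjusted p = 0.0279, and not without it, 1.00). The part of the root markers in the results was not tested. In whole plants, fewer cells of a type and less RNA per cell cannot be told apart.

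All 6 genes stood lowest in the L-AOPP plants, and their L-AOPP arrays overlapped with those of no other group. The groups above L-AOPP differed from gene to gene. As the plot of signals shows, the mean with IAA was above that with IPyA in AT4G20830 and AT2G44370, the order was the opposite in AT5G47980, and the arrays of the additions ran through much the same range in MSRB9, AT5G19110 and AT1G72140.

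**Figure D1:**
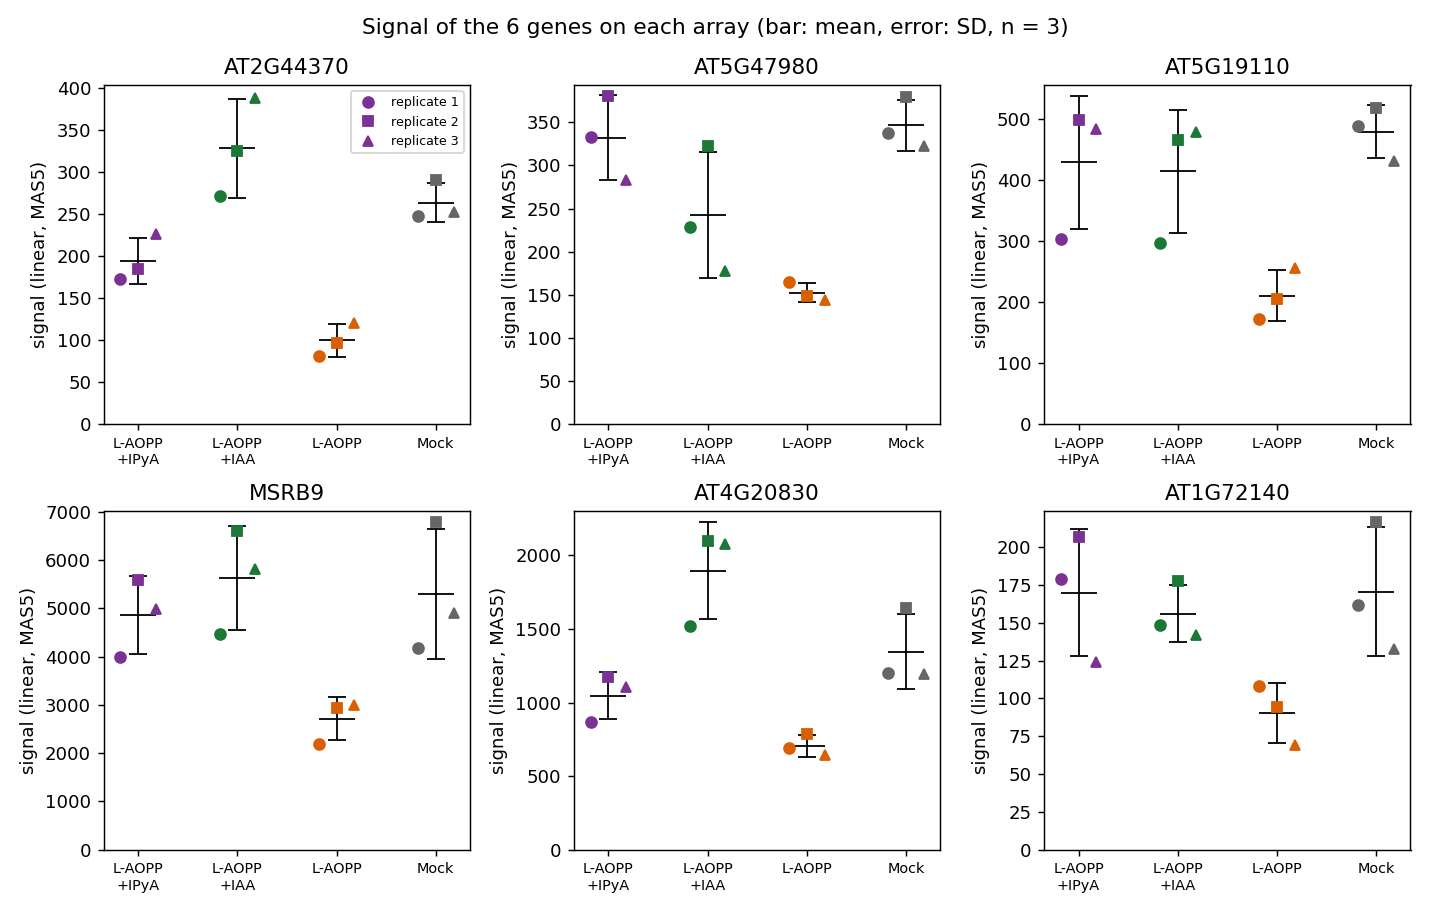
Signal (linear MAS5 units, y axis from 0) of each of the 6 genes on every array, by group (x axis), with the mean as a bar and the SD as its error (n = 3) and a symbol for each replicate number. In every panel the 3 L-AOPP arrays lie below all arrays of the other groups; AT2G44370 and AT4G20830 are highest with IAA, at means of 329 and 1896.

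The oxidase gene AT4G20830 had signals of 867.5, 1172.5 and 1102 in L-AOPP+IPyA plants and 1519, 2095 and 2075 in L-AOPP+IAA plants, against 688, 786.5 and 642 in L-AOPP and 1201, 1641 and 1196 in mock (replicates 1, 2 and 3). The order of the means was L-AOPP+IAA, mock, L-AOPP+IPyA and L-AOPP. The arrays of L-AOPP+IAA and mock overlapped, and those of the other neighbours in this order did not. Its fall with L-AOPP was -0.92 ± 0.17 on the log2 scale (SE of the fit to all arrays without pairing), and its rise over L-AOPP was 0.56 ± 0.17 with IPyA and 1.42 ± 0.17 with IAA. Relative to mock it stood at -0.36 ± 0.17 with IPyA and 0.50 ± 0.17 with IAA, and with IAA it was above mock in 3 of 3 pairs of replicate number. A further probe set, paired with both AT4G20830 and its neighbour AT4G20840, did not show this pattern. Its additions came in the opposite order without overlap, with arrays at 362.1 to 385.5 in L-AOPP+IPyA and 288.1 to 359.3 in L-AOPP+IAA. Its signal was 374 ± 11.7 in L-AOPP+IPyA, 332 ± 38.1 in L-AOPP+IAA, 321 ± 20.8 in L-AOPP and 338 ± 9.56 in mock (SD, n = 3 each).

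AT2G44370, the C1-domain gene, had signals of 173, 184.5 and 226 in L-AOPP+IPyA plants and 271, 326 and 389 in L-AOPP+IAA plants, against 81.2, 97.0 and 121 in L-AOPP and 248, 291 and 253 in mock. Its groups came in the same order as those of AT4G20830, and again only L-AOPP+IAA and mock, among neighbours, overlapped. The fall with L-AOPP was -1.42 ± 0.18 (log2, SE), and the rise over L-AOPP was 0.97 ± 0.18 with IPyA and 1.72 ± 0.18 with IAA. Against mock it stood at -0.45 ± 0.18 with IPyA and at 0.31 ± 0.18 with IAA.

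AT5G47980, the acyltransferase gene, had signals of 333, 381 and 283 in L-AOPP+IPyA plants and 228, 322 and 177 in L-AOPP+IAA plants, against 165, 148 and 144 in L-AOPP and 337, 379.5 and 323 in mock. Here mock and L-AOPP+IPyA were the highest groups and overlapped. L-AOPP+IAA came next, overlapping with L-AOPP+IPyA through its replicate 2 and lying just under mock, at 322 on its highest array against 323 on the lowest mock array. The log2 fall was -1.18 ± 0.20, with a rise over L-AOPP of 1.11 ± 0.20 with IPyA and 0.63 ± 0.20 with IAA. The pairs spread more with IAA (0.47, 1.12 and 0.30 for replicates 1, 2 and 3) than with IPyA (1.01, 1.36 and 0.97).

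MSRB9, the repair enzyme gene, had signals of 3991, 5595 and 4992 in L-AOPP+IPyA plants and 4468, 6592 and 5823 in L-AOPP+IAA plants, against 2197.5, 2943 and 2998 in L-AOPP and 4176, 6791.5 and 4905 in mock. The 3 groups other than L-AOPP overlapped with each other. The log2 fall was -0.95 ± 0.21, and the rises over L-AOPP were 0.84 ± 0.21 with IPyA and 1.05 ± 0.21 with IAA. Replicate 1 was the lowest array in every group, and the replicate number accounted for 22.0% of the gene's variance over the 12 arrays, the group for 75.6%.

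AT5G19110, the aspartyl protease family gene, had signals of 304, 499 and 484 in L-AOPP+IPyA plants and 298, 466 and 479.6 in L-AOPP+IAA plants, against 172, 205 and 255 in L-AOPP and 489, 518 and 432 in mock. Replicate 1 was the low array of both additions, and the pairs of the additions differed little, at 0.03, 0.10 and 0.01 (log2, L-AOPP+IPyA minus L-AOPP+IAA). The fall with L-AOPP was -1.20 ± 0.23, and the rises over L-AOPP were 1.01 ± 0.23 with IPyA and 0.96 ± 0.23 with IAA.

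AT1G72140, the transporter gene, had signals of 179, 207 and 124 in L-AOPP+IPyA plants and 148, 177.5 and 142 in L-AOPP+IAA plants, against 108, 94.6 and 69.1 in L-AOPP and 162, 217 and 133 in mock. L-AOPP+IPyA, L-AOPP+IAA and mock overlapped. Replicate 3 was the lowest array in every group, and the replicate number accounted for 25.4% of the variance, the largest share among the 6 genes. Its log2 fall was -0.91 ± 0.24, and it rose over L-AOPP by 0.90 ± 0.24 with IPyA and 0.80 ± 0.24 with IAA.

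How these counts compare with the whole array bears on how they can be read. Arrays did not overlap, in the direction of a fall with L-AOPP against mock, for 6 of the 6 genes and for 3.77% of all 15922 tested probe sets, but this is the contrast that chose the genes. Arrays of L-AOPP+IPyA lay above those of L-AOPP for 6 of 6 genes and 3.01% of all probe sets, and arrays of L-AOPP+IAA lay above L-AOPP for 6 of 6 genes and 5.51% of all probe sets. These rises are measured from the same 3 L-AOPP arrays, on which the genes had been picked as low, so part of each rise may come from that choice, and no test is given for them. Arrays of L-AOPP+IPyA lay below mock for 2 of 6 genes (1.84% of all probe sets), AT4G20830 and AT2G44370, and arrays of L-AOPP+IAA lay below mock for 1 of 6 (3.47%), AT5G47980. The mock arrays also took part in the choice of the genes, as high values.

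The share of the fall that was regained was taken within each replicate number, as the log2 rise from L-AOPP with the addition over the log2 distance between mock and L-AOPP, so that 0% is the L-AOPP level and 100% the mock level. The median over the 6 genes was 90.9% with IPyA and 101% with IAA. The genes spanned a wider range with IAA, at 51.2% to 154.7%, than with IPyA, at 60.9% to 102.9%. The same L-AOPP and mock arrays enter the shares with IPyA and with IAA. The additions also differed in dose, so compound and dose cannot be told apart in these shares.

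AT4G20830 regained 60.9% ± 23.4 with IPyA and 154.7% ± 29.8 with IAA (SD over 3 replicate numbers), and AT2G44370 regained 70.3% ± 13.2 with IPyA and 125.6% ± 28.2 with IAA. For these genes each number gave under 100% with IPyA and over 100% with IAA. AT5G47980 went the other way, with 94.0% ± 9.26 regained with IPyA and 51.2% ± 29.0 with IAA. Its shares with IAA were 45.5%, 82.6% and 25.5% in replicates 1, 2 and 3, each below the share of the same number with IPyA, and their mean was 35.5% without replicate 2. MSRB9 regained 91.1% ± 13.5 with IPyA and 113.9% ± 19.5 with IAA. AT5G19110 regained 90.8% ± 33.9 with IPyA and 87.1% ± 33.7 with IAA, and AT1G72140 regained 102.9% ± 19.3 with IPyA and 88.2% ± 19.2 with IAA. In AT5G19110, replicates 1, 2 and 3 gave 54.5%, 96.0% and 121.8% with IPyA and 52.6%, 88.6% and 120.03% with IAA. Both shares of a number are divided by the same fall, so their likeness is partly built in. That fall was -1.51, -1.34 and -0.76 (log2) in replicates 1, 2 and 3. The rises over L-AOPP were 0.82, 1.29 and 0.92 with IPyA and 0.79, 1.19 and 0.91 with IAA.

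**Figure D2:**
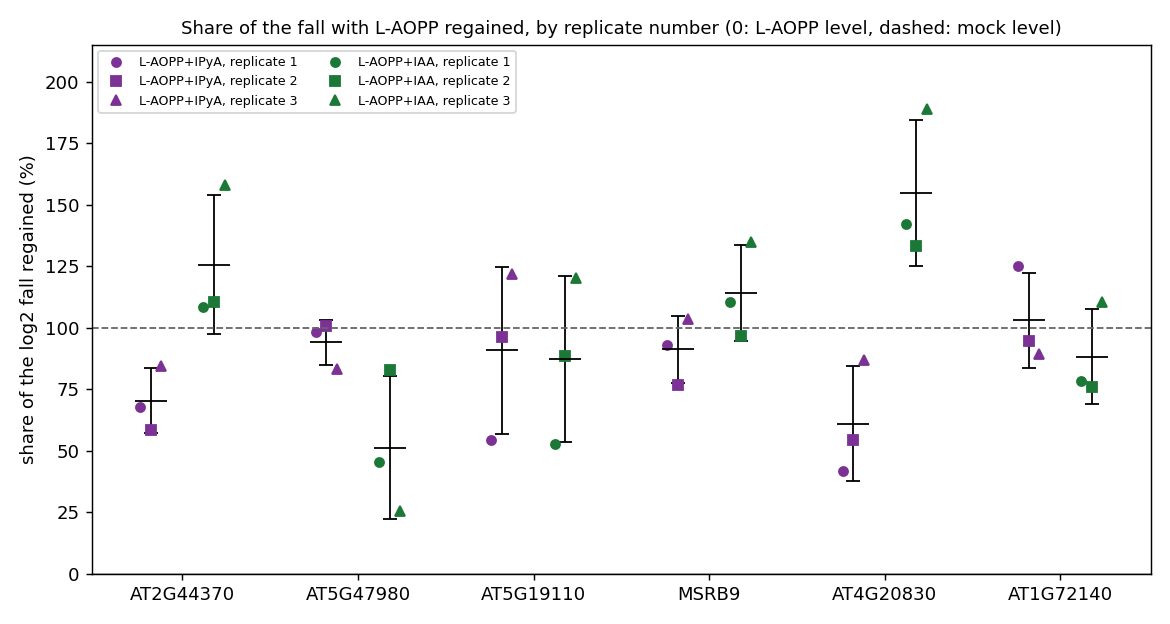
Share of the log2 fall with L-AOPP that was regained (y axis, percent; 100% is the mock level, dashed) for each gene (x axis), with IPyA left of IAA, the mean as a bar, the SD as its error (n = 3 replicate numbers) and a symbol for each number. AT4G20830 and AT2G44370 lie above 100% in all 3 numbers with IAA and below it with IPyA, and AT5G47980 is the lowest with IAA at a mean of 51.2%.

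The difference between the additions does not contain the L-AOPP and mock signals that chose the genes, and it was tested with limma over all 15922 tested probe sets. Earlier results of these data were known when the genes were chosen, so this difference may not be wholly free of the choice. The fit to all 12 arrays still takes part of its estimate of the spread from the L-AOPP and mock arrays, so fits to the 6 arrays of the additions alone are given beside it. The replicate numbers were found to pair the arrays, and adding them to the model as a block changed calls, so both fits are given. As with the shares, compound and dose cannot be told apart in this difference. AT4G20830 was 1.81-fold lower with IPyA than with IAA, a log2 difference of -0.85 ± 0.17 (lower in 3 of 3 pairs). Each ± here is the SE of the fit without pairing. The probe set that AT4G20830 shares with AT4G20840 had the additions in the opposite order. AT4G20830's own probe set was tested in both fits. It was called in the paired fit (adjusted p = 0.000584) and not in the fit without pairing (adjusted p = 0.0863). AT2G44370 was 1.68-fold lower with IPyA, at -0.75 ± 0.18 (lower in 3 of 3 pairs), and was likewise called with pairing (adjusted p = 0.00737) and not without it (adjusted p = 0.202). The paired call of AT4G20830 held when any replicate number was left out (adjusted p 0.00300 to 0.0307), and that of AT2G44370 ended without replicate 2 (0.156) or replicate 3 (0.0670). Fitted to the arrays of the additions alone, AT4G20830 and AT2G44370 had adjusted p-values of 0.000135 and 0.00586 with pairing, a fit chosen after seeing the data, and of 0.251 and 0.403 without it.

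AT5G47980 had the opposite sign, 0.49 ± 0.20 (higher with IPyA in 3 of 3 pairs), but did not pass (adjusted p = 0.133 with pairing, 0.931 without). MSRB9 differed by -0.21 ± 0.21 (below 0 in 3 of 3 pairs), with an adjusted p of 0.311 with pairing and of 1.00 without. For AT5G19110 the difference was 0.05 (95% interval -0.29 to 0.38 in the paired fit) and for AT1G72140 it was 0.10 (-0.23 to 0.43), so differences of either sign up to these bounds are not excluded by these arrays. Arrays of L-AOPP+IPyA lay below those of L-AOPP+IAA for 2 of the 6 genes, AT4G20830 and AT2G44370, and for 4.08% of all probe sets. In the paired fit the same 2 of 6 were called, against 1.94% of all probe sets (309). Without pairing limma called 0 of 6, against 0.377% of all probe sets (60). An unadjusted p under 0.05 in that fit was found for 3 of 6, against 701 of all 15922 probe sets. In the paired fit it was found for 4 of 6, against 1659 of all probe sets. The median difference over all tested probe sets was 0.01.

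**Figure D3:**
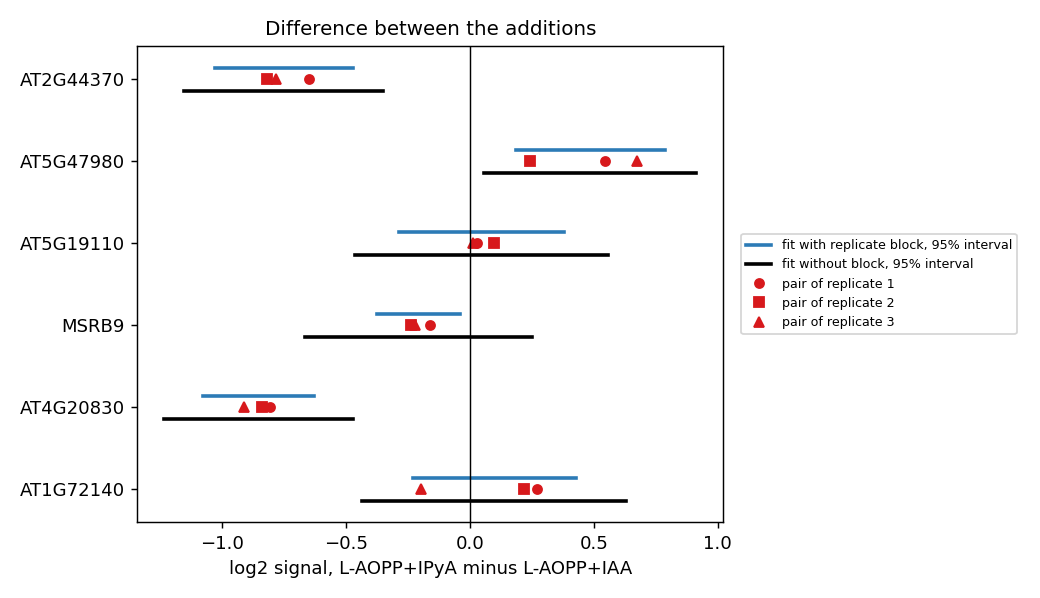
Log2 signal of L-AOPP+IPyA minus L-AOPP+IAA (x axis) for each gene (rows), with the 95% interval of the fit with the replicate block (blue) and without it (black) and a symbol for the pair of each replicate number. AT4G20830 (-0.85) and AT2G44370 (-0.75) lie left of 0 in every pair, AT5G47980 (0.49) lies right of 0, and the intervals of AT5G19110 and AT1G72140 span 0.

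GH3.3 and HAT2, early auxin genes, give a scale for the response to IAA. GH3.3 differed between IPyA and IAA by -3.84 ± 0.45 (adjusted p = 9.94e-07 with pairing) and HAT2, a homeobox-leucine zipper gene, by -2.32 ± 0.12 (adjusted p = 4e-08 with pairing). The ± values are SEs of the fit without pairing. Neither was lower with L-AOPP than in mock. GH3.3 averaged 789 in L-AOPP+IPyA, 9781 in L-AOPP+IAA, 859 in L-AOPP and 550.2 in mock, and HAT2 averaged 448, 2239, 447 and 384 in the same groups. With IPyA, GH3.3 and HAT2 stood at -0.26 ± 0.45 and 0.00 ± 0.12 against L-AOPP, and the 6 genes at 0.56 to 1.11. The 6 genes were picked as low on the same L-AOPP arrays, and GH3.3 and HAT2 were not. These values are therefore not on an equal footing, and no test was made between them. The root marker UPB1 was also called between the additions in the paired fit, with a mean of 197 in L-AOPP+IPyA and 103 in L-AOPP+IAA and a log2 difference of 0.94 (adjusted p = 0.00575; 0.151 without pairing), as 1 of 6 root markers.

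Relatives and neighbours of the 6 genes were examined from lists by family: the thalianol cluster, the MSRB reductases, the berberine bridge enzyme-like oxidases, the NPF5 transporters, the aspartyl protease family genes next to AT5G19110 with a related pair, and the genes next to AT2G44370. Of 51 such genes, 33 have a probe set of their own and 20 were tested. For L-AOPP against mock, 10 of the 20 lay below 0 and 10 above, with a median of -0.01 and a range of -0.73 to 0.74. Limma called 0 of 20 in that comparison with or without pairing, against 0.578% of all probe sets called with pairing and 0 without. An unadjusted p under 0.05 was found for 5 with pairing and 1 without, against 2127 and 528 of all 15922 probe sets. For L-AOPP+IPyA against L-AOPP the 20 had a median of -0.09. In either fit 0 were called, against 0.176% of all probe sets with pairing. An unadjusted p under 0.05 was found for 3 with pairing and 0 without, against 1564 and 367 of all probe sets. For L-AOPP+IAA against L-AOPP their median was -0.02. Without pairing 0 were called, against 0.396% of all probe sets. An unadjusted p under 0.05 was found for 5 with pairing and 1 without, against 2555 and 939 of all probe sets. With pairing 1 of the 20 was called, which is near the share of 3.71% over all probe sets.

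That 1 was MSRB5, another methionine sulfoxide reductase gene, which went the other way from MSRB9. It averaged 863 ± 213 in L-AOPP+IPyA, 643 ± 132 in L-AOPP+IAA, 1127 ± 304 in L-AOPP and 704.5 ± 285 in mock (SD, n = 3 each). It fell by 0.80 on the log2 scale with IAA against L-AOPP (adjusted p = 0.0221 with pairing, 0.684 without). MSRB3 and MSRB6 differed between L-AOPP and mock by 0.19 and -0.04.

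In the thalianol cluster, AT5G47950, another acyltransferase-like gene, resembled AT5G47980 in its order of IPyA above IAA. Its change with L-AOPP had the same sign but was smaller. With IAA its mean was below that with L-AOPP, at -0.33, and this was not called (limma, adjusted p = 0.117 with pairing). It averaged 406 in L-AOPP+IPyA, 285 in L-AOPP+IAA, 359 in L-AOPP and 433 in mock. It was higher with IPyA than with IAA by 0.51 (adjusted p = 0.0230 with pairing, 0.545 without), the only 1 of the 20 relatives called in this comparison, against 1.94% of all probe sets with pairing. Without pairing limma called 0 of the 20, and 2 had an unadjusted p under 0.05, against 701 of all 15922 probe sets. With pairing 5 of the 20 had an unadjusted p under 0.05, against 1659 of all probe sets. The difference of AT5G47950 between L-AOPP and mock was -0.27, and AT5G47980's was -1.18.

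Among the oxidases, 9 relatives of AT4G20830 were tested. AT4G20860, from the same stretch of neighbouring genes, differed between L-AOPP and mock by -0.09 and between L-AOPP+IAA and L-AOPP by -0.04. The neighbours AT4G20800 and AT4G20820 were below the filter on dim signals, with group means up to 4.30 and 29.1. Between the additions the 9 oxidase relatives had a median of -0.15 (IPyA minus IAA), and 0 were called in either fit. AT1G30700 was the lowest of the 20 relatives there, at -0.54 (limma, adjusted p = 0.077 with pairing), and differed between L-AOPP and mock by 0.05. AT1G30760 differed between L-AOPP and mock by -0.45 and between L-AOPP+IPyA and L-AOPP by 0.57, neither of them called. Next to AT5G19110, AT5G19100 differed between L-AOPP and mock by 0.01 and AT5G19120 by -0.25, and next to AT2G44370, AT2G44380 differed by 0.18. AT1G72125, a close neighbour of AT1G72140, differed by -0.25. No tested neighbour of these genes was called in this comparison in either fit. The other tested NPF5 genes also lay below 0 there, with AT1G22570 at -0.73, AT1G22550 at -0.26 and AT1G22540 at -0.22. Their unadjusted p (limma) was 0.00744, 0.00843 and 0.0428 with pairing, and 0.0989, 0.0716 and 0.17 without. Against L-AOPP they stood at 0.22, 0.255 and 0.24 with IPyA (paired unadjusted p 0.356, 0.00992 and 0.0266). With IAA they stood at 0.06, -0.10 and 0.0035 against L-AOPP. These differences were not called in either fit.

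**Figure D4:**
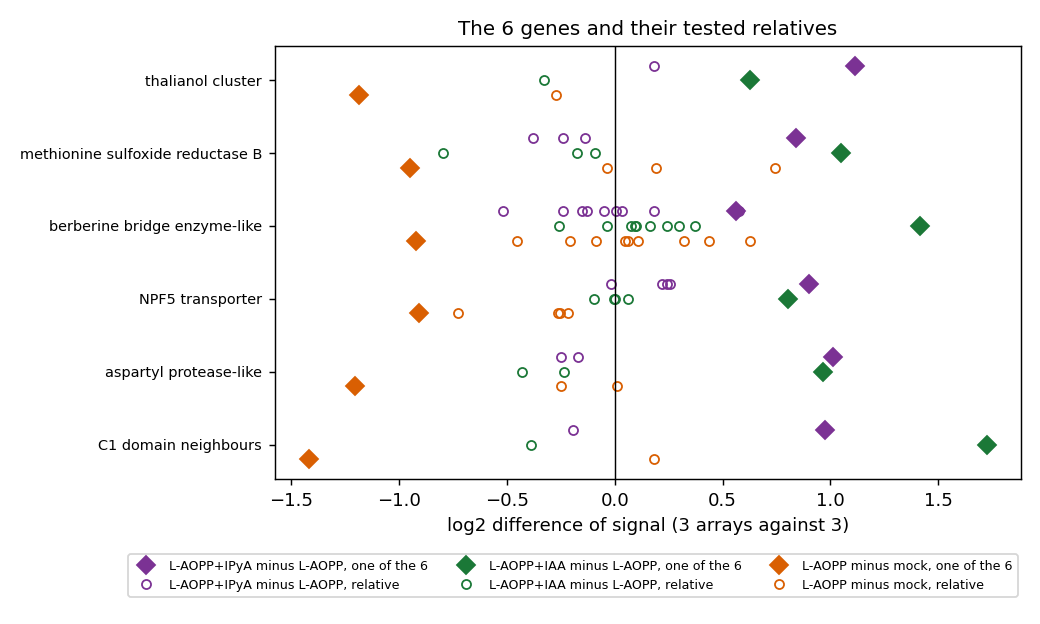
Log2 difference of signal (x axis) for the 6 genes (filled diamonds) and their 20 tested relatives (open circles) by family (rows), for L-AOPP+IPyA minus L-AOPP, L-AOPP+IAA minus L-AOPP and L-AOPP minus mock. The relatives lie between -0.73 and 0.74 for L-AOPP minus mock, while the 6 genes, chosen for their fall, lie between -1.42 and -0.91.

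Likeness to other genes was measured as Pearson's r of log2 signal over the 12 arrays, after taking away the mean of each replicate number, and is a description only: the arrays share their groups, and the same 4 group levels enter each r. Between the 6 genes themselves r ranged from 0.45 (AT5G47980 with AT4G20830) to 0.96 (AT2G44370 with MSRB9), with a median of 0.86 over 15 pairs. The nearest other genes to AT4G20830 were AT1G10990 (r = 0.98), AT2G47550 (0.95) and GSTU25 (0.94), a tau-class glutathione transferase gene. AT1G10990 averaged 107 in L-AOPP+IPyA, 207 in L-AOPP+IAA, 73.0 in L-AOPP and 149.5 in mock.

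AT2G44370 was nearest to AT1G34300 (r = 0.97), AT1G33590 (0.96) and AT4G02480 (0.93), and MSRB9 to AT1G34300 (0.96), AT4G02480 (0.94) and AT4G28085 (0.94). AT4G28085 averaged 290 in L-AOPP+IPyA, 353 in L-AOPP+IAA, 167 in L-AOPP and 345 in mock. AT5G47980 was nearest to organelle genes, the plastid photosystem genes psbC (r = 0.98) and psaC (0.98) and the mitochondrial cytochrome c biogenesis gene ccb382 (0.96). The transporter gene AT1G72140 also had plastid genes among its nearest, clpP (r = 0.95), which encodes a protease subunit, and ndhD (0.92), with AT1G56680 (0.94). AT5G19110 was nearest to AT5G04880 (r = 0.93), AT3G06660 (0.92) and AT4G02480 (0.91). The group levels of psaC were 2310.2 in L-AOPP+IPyA, 2034 in L-AOPP+IAA, 1581 in L-AOPP and 2431 in mock, with IPyA above IAA as for AT5G47980.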

How the data were processed

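The deposited table holds 1 linear intensity for each probe set and array, which the authors computed with MAS5 (per the submitters' processing notes, which give no version). Detection calls were not used here. The trimmed mean of every array (2% left out at each end) is 500.0, a scaling to one target. Of 22810 probe sets, 64 controls were left out, as were 6824 with a mean log2 signal at or below the 30th percentile (signal 47.4), which left 15922. Signals under 0.05 were raised to 0.05, and log2 values went into limma 3.58.1 under R 4.3.3 (lmFit and eBayes with intensity trend, all 12 arrays, two-sided, Benjamini-Hochberg, threshold 0.05). All adjusted p-values are limma's, and the SE given with a log2 difference is that of the fit without pairing. The number of arrays limits the precision.

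Arrays with the same number in their titles deviated together from their group means (18 correlations, 0.501 to 0.685; 36 between different numbers, -0.582 to 0.123), and all 12 were closest to their own number, so the numbers were taken to pair the arrays and the fit with that block is given beside results it changed. Genes were named from the platform annotation and RefSeq's TAIR10.1 gene table, used for names and neighbours. The named genes are the 6, their listed relatives, the 3 nearest genes by r and GH3.3 and HAT2; UPB1 and AT2G47540 are root markers. The genes and lists were chosen with earlier results of these data known. No sequences were used here. Alternatives changed the scaling, floor, filter, trend, groups fitted and arrays included.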

Additional observations from a re-analysis of the deposited data

Results flagged for a closer look

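AT4G20830 and AT2G44370 differed between the additions when the difference itself was tested with pairing, and not without pairing. The log2 difference of L-AOPP+IPyA minus L-AOPP+IAA was -0.85 for AT4G20830 (adjusted p = 0.000584 with pairing, 0.0863 without, and 0.0683 to 0.368 over single arrays left out without pairing) and -0.75 for AT2G44370 (adjusted p = 0.00737 with pairing, 0.202 without, and 0.203 to 0.662 over single arrays left out without pairing), by limma with Benjamini-Hochberg adjustment. Both were lower with IPyA in 3 of 3 pairs. The further probe set that AT4G20830 shares with AT4G20840 had the additions in the opposite order. With the L-AOPP and mock arrays left out of the fit, the adjusted p-values were 0.000135 and 0.00586 with pairing, and 0.251 and 0.403 without it, for AT4G20830 and AT2G44370 in that order.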

How the results depend on the processing

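Signs of the differences between the additions held for AT2G44370, AT4G20830, AT5G47980 and MSRB9 under all 19 alternatives. When single arrays were left out, the difference of AT5G19110 ran from -0.18 to 0.28 and turned negative for replicate 2 or 3 of L-AOPP+IPyA and replicate 1 of L-AOPP+IAA, and that of AT1G72140 ran from -0.059 to 0.31 and turned negative for replicate 2 of L-AOPP+IPyA. The number of called probe sets between the additions was 60, and 309 with the replicate block, 206 with the replicate block and no intensity trend, 403 with the replicate block and only the arrays of the additions, and 33 with the dimmest 50% left out, where fewer probe sets were tested. It was 25 to 48 when one array was left out (replicates 1, 2 and 3 of L-AOPP+IPyA in turn gave 37, 45 and 29, and those of L-AOPP+IAA 25, 32 and 48), and 118 to 222 with the block when one replicate number was left out, an alternative chosen after seeing the data, as were the block with no trend and the block with only the arrays of the additions. Without pairing, AT4G20830 was called only with median centring (adjusted p = 0.0466). The median share regained with IPyA was 86.4% from group means with no replicate block and 80.1% to 91.04% when one number was left out (80.1% without replicate 3). With IAA the median stayed within 90.3% to 110.0%. The share of AT4G20830 with IAA was 191.3% on the linear scale. The cause of these changes was not tested.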
